A study of Mus musculus with 6 samples.

Results

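The genes described here are 10 regulators and markers of fat cell formation: Pparg, Cebpa, Cebpb, Cebpd, Fabp4, Fabp5, Lpl, Adipoq, Plin1 and Cd36. Each was taken by its symbol from the 36812 named loci kept from the deposited tables, and each symbol matched 1 locus. Messenger RNA was sequenced from embryonic fibroblasts of the mouse, cultured directly from embryos, in 3 wild-type (STC1+/+) and 3 knockout (STC1-/-) libraries. Both genotypes are labelled C57BL/6, and the labels describe growth in DMEM with fetal calf serum and antibiotics and name no treatment. The knockout lacks stanniocalcin-1, a secreted glycoprotein. The labels do not say whether a library came from 1 embryo, a pool of embryos or separate cultures, nor do they give the embryos' age. The p-values therefore measure only the spread between these libraries, which may be technical.

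Fat cells arise from fibroblast-like precursors through a cascade of transcription factors. C/EBPβ and C/EBPδ, encoded by Cebpb and Cebpd, are induced first, and they switch on Pparg and Cebpa, which maintain one another and turn on the genes of lipid uptake, storage and hormone secretion. Most of these genes are not restricted to fat. Macrophages, phagocytes that can be present in cultures of embryonic fibroblasts, also use Pparg, the C/EBP factors, Fabp4, Fabp5, Lpl and Cd36. Adipoq, which encodes the hormone adiponectin, and Plin1, which encodes the coat protein perilipin 1 of the fat cell's lipid droplet, are largely restricted to fat cells. The 10 genes were therefore read as 8 shared with macrophages and 2 fat-restricted ones.

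Total depth ran from 21882092 estimated fragments (knockout replicate 1) to 71488701 (wild-type replicate 1). Levels are given as CPM, a gene's fragments relative to library size, after scaling to a common effective library size. Stc1, the targeted gene, had 2245, 291 and 368 fragments in wild-type replicates 1 to 3 and 6, 0 and 0 in knockout replicates 1 to 3, as the labels state. The fibroblast genes Pdgfra, Prrx1 and Thy1 were present in every library, Pdgfra at 88.4 CPM or more. Macrophage markers also appeared in every library but at very unequal levels. The list held 20 symbols, of which Adgre1 and Emr1 name 1 gene, and 18 were found in the loci kept. Summed over the 16 loci that carry a marker alone, they stood at 46.7, 1439 and 13842 CPM in wild-type replicates 1 to 3 and at 1635, 154 and 204 CPM in knockout replicates 1 to 3. No marker was at 0 in any library, although C1qa stood at 0.188 CPM in knockout replicate 2. In bulk RNA, fewer cells of a type and less RNA per cell cannot be told apart.

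The fat-restricted genes were all but silent. Adipoq (chromosome 16, 23146536 to 23158028, plus strand; mm10, as are all positions) had 12 fragments in wild-type replicate 3, 3 in knockout replicate 3 and 0 in the other 4 libraries. With no fragment, the level could still be as high as 0.0425 CPM in wild-type replicate 1, 0.0703 in wild-type replicate 2, 0.141 in knockout replicate 1 and 0.0805 in knockout replicate 2, where each limit is that of 3 counts and covers counting error only. Plin1 (chromosome 7, 79721164 to 79732776, minus strand) had 1 fragment in each of wild-type replicates 1 and 3 and 0 in the rest. Neither gene passed the filter on low counts, and no fold change is given for them.

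Of 19 further genes fixed as fat-restricted, 7 passed the filter on low counts. No fragment in any library came from Cidec, a droplet protein gene, Lep, the gene of the hormone leptin, Pck1, an enzyme of glycerol and glucose synthesis, or Adig, the adipogenin gene. Cfd, the adipsin gene, reached 0.166 CPM in wild-type replicate 3 and was at 0 in the other 5 libraries, and Retn, the resistin gene, did not exceed 0.0937 CPM. The 7 that passed were Agpat2, Plin4, Sncg, Tshr, Gpd1, Slc2a4 and Adrb3. Agpat2, an enzyme of phospholipid and triglyceride synthesis that many cells use, stood at 24.2 to 46.6 CPM. Plin4, a droplet coat protein gene, stood at 4.20, 2.39 and 8.30 CPM in wild-type and 7.99, 4.83 and 10.5 CPM in knockout replicates 1 to 3. Of these 7, 4 had positive and 3 negative log2 fold changes (median 0.05), and 0 passed the test described next.

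Promoter sequences are shown for the 2 start sites among these genes that carry the letters of a C/EBP motif, since C/EBP factors are the inducers in the cascade above. RefSeq windows (GRCm38.p6, the assembly of mm10) were found for 6 of the 10 genes, 8 windows in all. Each window ran from 250 bases before the start to 50 after it. The whole window was searched, and only the part before the start is printed. The motif searched was TTGCNNAA on both strands, which occurred in 10.8% of all 32851 windows of the same length. Lower-case letters are the 250 bases before the start, 5′ to 3′ on the gene's strand, and capitals mark the motif matches.
Pparg, most downstream of 3 starts, plus strand, chr6:115421816-115422065: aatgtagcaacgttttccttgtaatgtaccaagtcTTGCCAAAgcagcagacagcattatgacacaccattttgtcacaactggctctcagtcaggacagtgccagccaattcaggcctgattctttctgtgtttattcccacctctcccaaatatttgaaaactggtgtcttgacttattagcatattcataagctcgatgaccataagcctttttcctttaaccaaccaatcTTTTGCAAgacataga
Plin1, minus strand, chr7:79732777-79733026: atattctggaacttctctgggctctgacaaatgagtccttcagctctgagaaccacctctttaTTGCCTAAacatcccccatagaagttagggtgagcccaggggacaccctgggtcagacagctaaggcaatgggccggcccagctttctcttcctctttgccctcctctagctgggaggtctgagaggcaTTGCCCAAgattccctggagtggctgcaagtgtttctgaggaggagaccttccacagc
In the Pparg window the matches began at positions -215 and -16 from the start, and in the Plin1 window at -187 and -58. The most downstream Pparg start is the one from which the fat-restricted form of the protein, PPARγ2, is made; the files count fragments over the whole Pparg locus, so the forms are not told apart. No window of the 8 held the direct repeat bound by PPAR with RXR (in 0.381% of all windows) or the PU.1 motif of myeloid cells (GAGGAAGT, in 3.20%). A match is a run of letters, not a measured binding site.

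**Figure D1:**
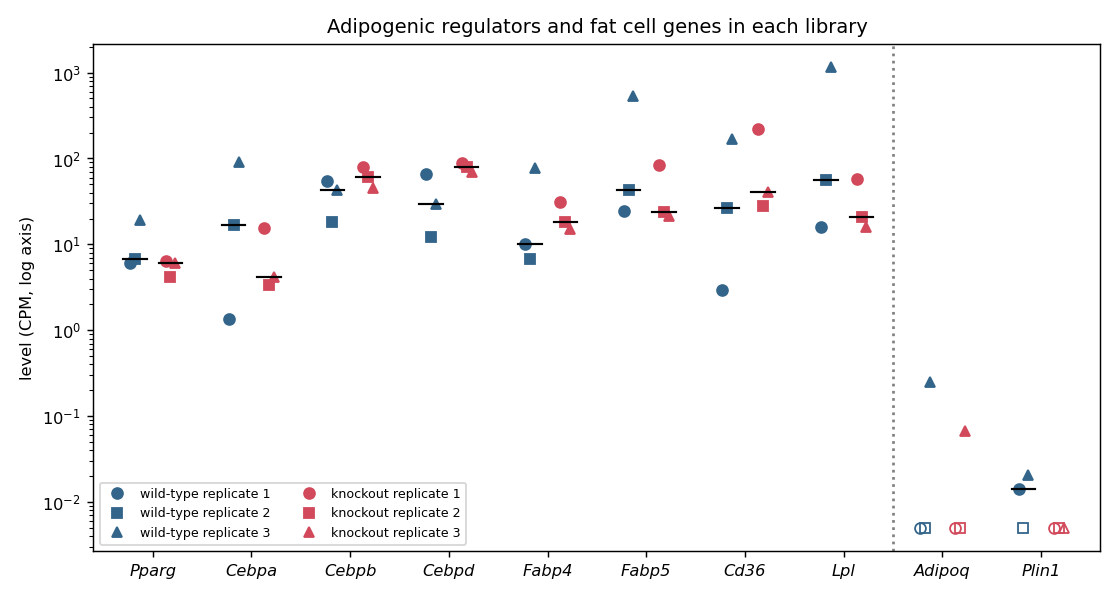
Level of each of the 10 genes in each library (CPM, log axis), with wild-type libraries in blue and knockout libraries in red; black bars are the median of 3 libraries, and open symbols at the foot mark 0 fragments. The 8 genes left of the dotted line, shared with macrophages, were detected in every library, while Adipoq and Plin1 did not exceed 0.248 CPM.

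The first question was which of the 10 genes differed between the genotypes. edgeR's quasi-likelihood test, with Benjamini-Hochberg adjustment over all 15673 genes tested and a threshold of 0.05, called 0% of all genes and 0 of the 8 genes that passed the filter. At an unadjusted p under 0.05 there were 0 of the 8 genes, against 3.87% of all genes, 1.6% higher and 2.27% lower in the knockout. Stc1, the targeted gene, was not called either, with a log2 fold change of -7.72 (edgeR unadjusted p = 0.00313, adjusted p = 0.763). In the authors' deposited table Stc1 had a q-value of 3.67e-06. The absence of a call in this test is therefore not evidence of equal levels. DESeq2 called 0.33% of all genes. It gave neither a p nor an adjusted p for Fabp4, Fabp5 and Lpl, so these were not tested by it, and Pparg, Cebpa, Cebpb, Cebpd and Cd36 had unadjusted p-values from 0.0572 to 0.665 and were not called. limma-voom also called 0, with none at an unadjusted p under 0.05. Of the 8 genes, 5 had negative and 3 positive log2 fold changes (knockout over wild type), their median being -0.76 beside -0.05 over all genes tested. Without wild-type replicate 3 the counts were 3 negative and 5 positive, with a median of 0.56 beside 0 over all genes. The 8 genes are those that passed the filter, not the whole set.

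**Figure D2:**
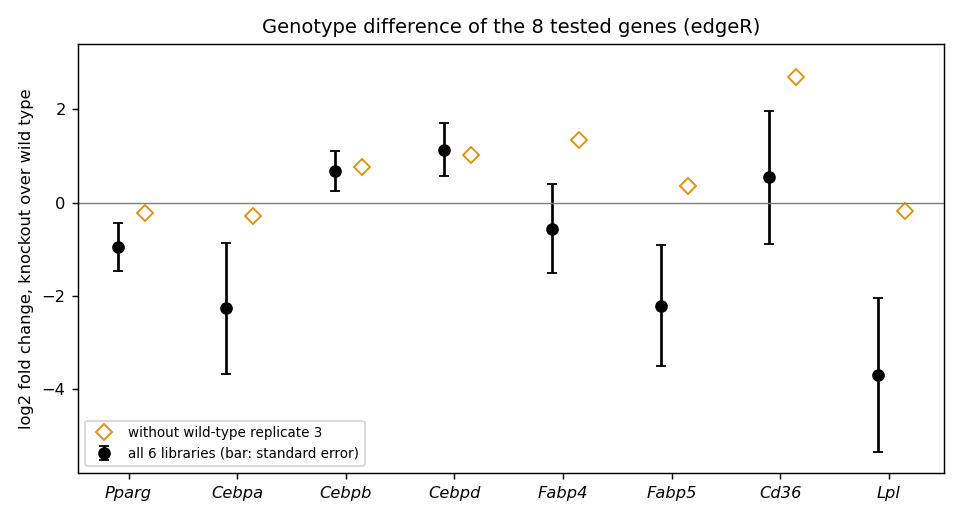
Knockout over wild type, as a log2 fold change, for the 8 genes tested with edgeR, from all 6 libraries (black, bars are standard errors) and without wild-type replicate 3 (open diamonds). Fabp4 and Fabp5 had the opposite sign without that library, and Lpl moved from -3.70 to -0.18.

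Cebpd and Cebpb, the early inducers, had higher mean levels in knockout than in wild-type cells, by less than the test could call. Cebpd (chromosome 16, 15886670 to 15891614) stood at 65.6, 12.3 and 29.7 CPM in wild-type replicates 1 to 3 and at 87.6, 78.7 and 69.9 CPM in knockout replicates 1 to 3. Every knockout library lay above every wild-type library, but the gap between knockout replicate 3 and wild-type replicate 1 was narrow. The mean was 78.7 ± 8.85 CPM for knockout against 35.9 ± 27.2 CPM for wild-type libraries (SD, n = 3 each), which is 1.13 ± 0.57 on the log2 scale (standard error, as for all log2 fold changes below; edgeR adjusted p = 0.763, range 0.140 to 0.982 over the alternatives). By exact permutation of the 6 libraries, two-sided, p was 0.1, and 3 against 3 can go no lower. Cebpd was the only member of the 8 whose genotypes did not overlap. Over all genes tested, 10.6% did not overlap in either direction, and 5.18% had every knockout library above every wild-type one. On log2(FPKM + 1) and on log2(FPKM + 0.1), limma gave Cebpd an unadjusted p of 0.0405 and 0.0398, with adjusted p-values of 0.821 and 0.826. Without wild-type replicate 1, edgeR's log2 fold changes were 1.92 for Cebpd, -2.82 for Cebpa and -4.24 for Lpl, with unadjusted p-values of 0.00562, 0.0351 and 0.0237 and adjusted p-values of 0.140, 0.242 and 0.209.

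Cebpb (chromosome 2, 167688915 to 167690418) stood at 54.7, 18.3 and 42.8 CPM in wild-type and 80.5, 60.2 and 45.7 CPM in knockout libraries. Knockout replicate 3 lay below wild-type replicate 1, so the genotypes overlapped. The log2 fold change was 0.68 ± 0.43 (edgeR adjusted p = 0.763). Wild-type replicate 2 was the lowest library for both factors. Cebpd and Cebpb kept positive fold changes in all 18 alternatives, from 0.74 to 1.92 and from 0.36 to 1.03. Neither ranked the libraries as the macrophage markers did. Wild-type replicate 3, with the most markers, was the second lowest library for both. Knockout replicate 1, with the second most markers, was the highest for both. Each locus overlaps a gene on the opposite strand, Spidr for Cebpd and Tmem189 for Cebpb. The kit marks strand, and the sources used here do not give whether the counting used it.

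Pparg and Cebpa, the later pair of the cascade, were both highest in wild-type replicate 3. Pparg, the nuclear receptor on which fat cell formation depends (chromosome 6, 115361039 to 115490401), stood at 6.05, 6.82 and 19.3 CPM in wild-type replicates 1 to 3 and at 6.34, 4.18 and 6.08 CPM in knockout replicates 1 to 3. Apart from wild-type replicate 3, the libraries lay between 4.18 and 6.82 CPM. It had a log2 fold change of -0.95 ± 0.51 (edgeR adjusted p = 0.763), and it was -0.22 without wild-type replicate 3. The antisense transcript Gm44079 is annotated within the locus.

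Cebpa (chromosome 7, 35119293 to 35121926) encodes C/EBPα, which both fat cells and the myeloid lineage use. It stood at 1.34, 17.0 and 90.7 CPM in wild-type and 15.3, 3.33 and 4.13 CPM in knockout replicates 1 to 3. The libraries ranked exactly as they did for the summed macrophage markers except that wild-type replicate 2 and knockout replicate 1, which had similar marker levels, changed places. The highest library was 67.4 times the lowest, and both were wild type. Knockout over wild type gave a log2 fold change of -2.27 ± 1.41 (edgeR adjusted p = 0.763). It was -0.28 without wild-type replicate 3 and 0.33 with the mean of the macrophage markers as a covariate. The antisense transcript Gm45091 overlaps its start.

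Of the lipid handling genes, Lpl (chromosome 8, 68880491 to 68907448) encodes lipoprotein lipase, which frees fatty acids from circulating triglyceride. It stood at 16.01, 55.7 and 1161 CPM in wild-type replicates 1 to 3 and at 58.2, 20.9 and 16.1 CPM in knockout replicates 1 to 3. Of the Lpl level summed over the wild-type libraries, 94.2% came from replicate 3, and the other 5 libraries overlapped. The log2 fold change of -3.70 ± 1.65 was the lowest of the 8 genes (edgeR adjusted p = 0.763, range 0.209 to 0.982). Without wild-type replicate 3 it was -0.18. In the authors' deposited table Lpl had a log2 fold change of -3.61, a p-value of 0.0049 and a q-value of 0.818.

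Fabp5, a fatty acid binding protein of skin, macrophages and fat (chromosome 3, 10012545 to 10017117), stood at 24.5, 42.8 and 533 CPM in wild-type and 84.6, 23.8 and 21.2 CPM in knockout libraries. Its order over libraries had the same top 3 as the macrophage markers, wild-type replicate 3, knockout replicate 1 and wild-type replicate 2. Fabp5 had a log2 fold change of -2.21 ± 1.30 (edgeR adjusted p = 0.763) and 0.36 without wild-type replicate 3. RefSeq lists a pseudogene copy, Fabp5l2, so reads of Fabp5 could have been split.

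Fabp4 (chromosome 3, 10204347 to 10208576, minus strand), known as aP2 and the classic marker of maturing fat cells, also occurs in macrophages and capillary endothelium. It stood at 10.1, 6.68 and 78.3 CPM in wild-type and 31.3, 18.3 and 14.97 CPM in knockout replicates 1 to 3. The 3 knockout libraries lay above wild-type replicates 1 and 2 and below wild-type replicate 3. The log2 fold change was -0.56 ± 0.96 (edgeR adjusted p = 0.863). Without wild-type replicate 3 it was 1.35, with an unadjusted p of 0.0221 and an adjusted p of 0.725 in edgeR. Wild-type replicate 1, with 46.7 CPM of macrophage markers, held more Fabp4 than wild-type replicate 2, with 1439 CPM of them.

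Cd36 (chromosome 5, 17781690 to 17888959, minus strand) encodes a scavenger receptor that takes up fatty acids and oxidized lipoproteins. It stood at 2.97, 26.4 and 168 CPM in wild-type and 218, 27.7 and 40.2 CPM in knockout replicates 1 to 3. Unlike the other lipid handling members, it was highest in a knockout library, and the highest level was 73.4 times the lowest. The log2 fold change was 0.54 ± 1.43 (edgeR adjusted p = 0.912). Leaving out wild-type replicate 3 gave 2.70, and leaving out knockout replicate 1 gave -0.95. With the macrophage marker mean as a covariate it was 2.86, with an unadjusted p of 1.64e-04 and an adjusted p of 0.274 in edgeR. That fit estimates 3 coefficients from 6 libraries.

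**Figure D3:**
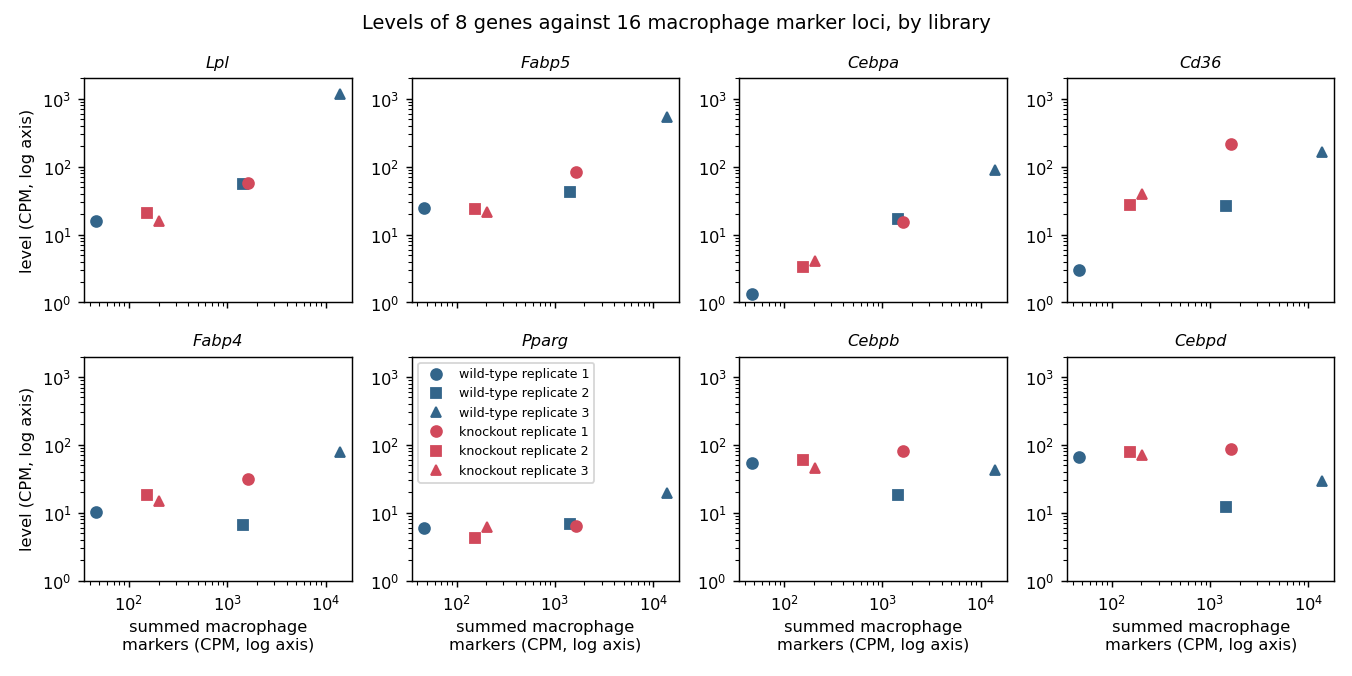
Level of each of the 8 detected genes (CPM, log axis) against the summed level of the 16 macrophage marker loci that carry a marker alone (CPM, log axis), 1 point a library. Lpl, Fabp5 and Cebpa were highest in wild-type replicate 3, which had 13842 CPM of markers, while Cebpb and Cebpd were among their lowest there. Cebpb and Cebpd were highest in knockout replicate 1, which had 1635 CPM of markers.

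Of the 8 genes, 5 were highest in wild-type replicate 3, as were 17 of 17 tested macrophage marker loci and 28.9% of all genes tested. The macrophage marker Cx3cr1, which was not tested, was highest in wild-type replicate 2, at 44.3 CPM against 27.4 CPM in wild-type replicate 3. For the macrophage marker loci, 17 of 17 log2 fold changes were negative (median -2.43). Leaving out wild-type replicate 3 turned that median to 0.09, and leaving out knockout replicate 1 gave -4.68. The part of the macrophage markers in the genotype differences of the members was not tested beyond the fit with their mean as a covariate. Markers of other cell types were read in the same libraries, and their part in the results was not tested. Of the 10 endothelial markers 8 passed the filter, and Pecam1 and Cdh5 did not exceed 2.72 and 3.70 CPM, both highest in wild-type replicate 2, where Fabp4 was lowest. Kdr and Emcn were highest in wild-type replicate 3, as Pparg was, with Kdr at 5.54, 8.78 and 19.00 CPM in wild-type and 8.22, 7.43 and 5.52 CPM in knockout replicates 1 to 3. Summed, the endothelial markers ran from 64.9 to 131 CPM in wild-type and from 89.6 to 154 CPM in knockout libraries, with Flt1 the highest marker in every library. Of the 8 tested, 5 had negative and 3 positive log2 fold changes (median -0.58). Tek had the smallest p of them (log2 fold change -2.29 ± 0.83, edgeR unadjusted p = 0.0336, adjusted p = 0.763). Its knockout libraries, at 0.322 CPM or less, all lay below the wild-type ones, as in 5.44% of all genes tested. Of 11 skeletal muscle markers 4 passed, all with negative log2 fold changes (median -0.57). Des, the desmin gene, stood at 23.7, 98.3 and 82.4 CPM in wild-type and 18.8, 11.8 and 26.4 CPM in knockout replicates 1 to 3 (log2 fold change -1.84 ± 0.58, edgeR unadjusted p = 0.0199, adjusted p = 0.763), while Myf5 was at 0 in every library. Of 9 epithelial markers 3 passed, namely Krt18, Krt19 and Cldn4. Krt19 stood at 30.3, 20.3 and 9.52 CPM in wild-type and 28.1, 27.1 and 13.7 CPM in knockout replicates 1 to 3. Krt5, which did not pass, was at 0.170 CPM or less and, like Krt19, was highest in wild-type replicate 1. The other epithelial markers were highest in wild-type replicate 2, where Krt8 stood at 2.23 CPM and Cdh1 at 2.53 CPM. In the other libraries Krt8 did not exceed 0.141 CPM and Cdh1 did not exceed 0.376 CPM.

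Levels of different genes were compared per length, as the FPKM (fragments relative to the length of the transcript and the size of the library) the authors deposited. Averaged over the 6 libraries, Fabp5 stood at 107 FPKM, Lpl at 52.5, Fabp4 at 43.8, Cebpd at 42.5, Cebpb at 29.4, Cd36 at 18.7, Cebpa at 7.02, Pparg at 3.83, Adipoq at 0.0358 and Plin1 at 0.00265. Fabp5 exceeded Lpl, Cd36 exceeded Cebpa, and Pparg exceeded Adipoq in 6 of 6 libraries. The remaining neighbours changed places between libraries: Lpl exceeded Fabp4 in 2 of 6, Fabp4 exceeded Cebpd in 2, Cebpd exceeded Cebpb in 4, Cebpb exceeded Cd36 in 4 and Cebpa exceeded Pparg in 3. The ratio of Cebpd to Cebpa FPKM, chosen after the values were seen, was 114, 1.62 and 0.768 in wild-type replicates 1 to 3 and 13.5, 55.5 and 39.4 in knockout replicates 1 to 3.

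The wider network was read from lists of further genes. Of 16 other factors that favour fat cell formation, 16 were tested, with 6 positive and 10 negative log2 fold changes, a median of -0.14 and 0 called. Ebf1, an early factor of fat cell commitment, stood at 35.9, 58.0 and 26.0 CPM in wild-type and 26.5, 28.1 and 11.6 CPM in knockout replicates 1 to 3 (log2 fold change -0.86 ± 0.44). The immediate early factor Egr2 and the cyclic AMP response factor Creb1 had log2 fold changes of -0.77 and -0.43, with overlapping genotypes. Nr1h3, which encodes the oxysterol receptor LXRα and shares its locus with Madd and Gm13783, stood at 88.6 CPM in wild-type replicate 3 and at 18.7 CPM or less in the other 5 libraries.

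Of 15 factors that restrain fat cell formation, found at 16 loci because Gata2 has 2, 15 loci were tested, 5 positive and 10 negative, with a median of -0.35 and 0 called. The 2 Gata2 loci lie on opposite strands, and both are counted. The one on the minus strand had 28 fragments or fewer in every library. Dlk1, the preadipocyte factor Pref-1, stood at 34.0, 105 and 11.4 CPM in wild-type and 11.98, 18.4 and 87.1 CPM in knockout replicates 1 to 3, so its spread within each genotype was wide. Klf7, a zinc finger factor, was the only one of the list without overlap. Its levels were 62.9, 62.0 and 57.5 CPM in wild-type and 42.7, 51.5 and 56.0 CPM in knockout libraries (log2 fold change -0.28 ± 0.15). Over all genes tested, 10.6% did not overlap in either direction, and 5.44% had every knockout library below every wild-type one. Klf2 had a log2 fold change of -0.68, and the locus of Gata3 and 9230102O04Rik one of 1.11.

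Genes that store, hydrolyse and release fat were read next. Of 21 genes, found at 22 loci because Lipe has 2, 20 loci were tested, with 12 positive and 8 negative log2 fold changes, a median of 0.25 and 0 called. The 2 Lipe loci lie on opposite strands, and both are counted. In 6 of the 20 loci every knockout library lay above every wild-type library, where the share over all genes was 5.18%. In 1 locus every knockout library lay below, where that share was 5.44%. Angptl4, a secreted inhibitor of lipoprotein lipase and a PPAR target, stood at 58.0, 12.1 and 13.7 CPM in wild-type and 147, 94.7 and 70.3 CPM in knockout replicates 1 to 3. Its locus also carries 4931413I07Rik, and the log2 fold change was 1.89 ± 0.70 (edgeR adjusted p = 0.763). Dgat2 and Dgat1, which encode the enzymes of the last step of triglyceride synthesis, stood at 15.8 ± 5.25 against 8.77 ± 2.53 CPM and at 26.3 ± 3.61 against 20.2 ± 2.92 CPM, knockout against wild type (SD, n = 3 each).

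Plin2, Abhd5, Fabp3 and Scd1 were named after their values were seen, because their genotypes did not overlap. Plin2, the droplet coat protein of cells other than fat cells, stood at 749, 182 and 475 CPM in wild-type and 989, 956 and 794 CPM in knockout replicates 1 to 3. Abhd5, the activator of the triglyceride lipase, stood at 93.5, 55.9 and 88.0 CPM in wild-type and at 104, 101 and 104 CPM in knockout libraries. Fabp3, a binding protein of the same family as Fabp4, stood at 4.35, 1.29 and 4.10 CPM in wild-type and 5.31, 5.12 and 4.97 CPM in knockout libraries. In all 3 of these genes wild-type replicate 2 was the lowest library and wild-type replicate 1 the nearest to the knockout libraries. Scd1, a fatty acid desaturase gene, lay the other way, at 231, 170.3 and 171 CPM in wild-type and 169, 156 and 115 CPM in knockout libraries. Mgll, the monoglyceride lipase gene, had a log2 fold change of -0.85 with overlapping genotypes.

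**Figure D4:**
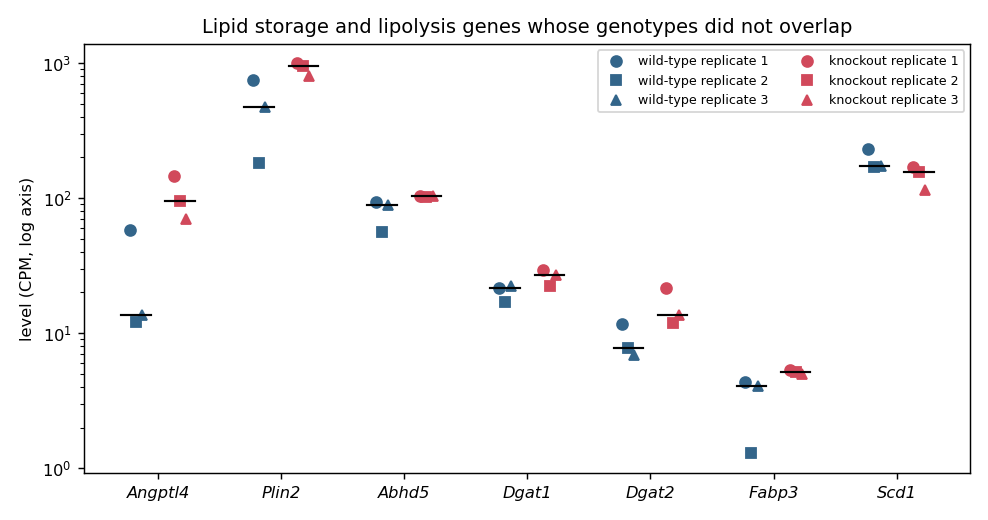
Levels (CPM, log axis) of the 7 lipid storage and lipolysis genes, of 20 loci tested, whose genotypes did not overlap; blue points are wild-type and red points knockout libraries, and black bars are medians of 3 libraries. Angptl4 ran from 12.1 to 58.0 CPM in wild-type and from 70.3 to 147 CPM in knockout libraries.

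Precursor and progenitor genes did not lie to one side. Of 12, all tested, 7 had positive and 5 negative log2 fold changes (median 0.09), and 0 were called. Cd24a, a surface protein of early fat cell precursors, stood at 79.8, 33.4 and 34.3 CPM in wild-type and 108, 111 and 137 CPM in knockout replicates 1 to 3, with no overlap (log2 fold change 1.28 ± 0.38, edgeR adjusted p = 0.763). Cd34, another precursor surface protein, stood at 56.9, 27.4 and 11.3 CPM in wild-type and 55.0, 62.6 and 186 CPM in knockout libraries, which overlapped. Pdgfrb and Col15a1 had log2 fold changes of -0.60 and -1.73, with overlapping genotypes.

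For each tested member, the genes with the most similar pattern over the 6 libraries were found among 11728 genes with a mean of at least 2 log2 CPM, by Pearson's r of log2 CPM, given as a description. Cd36 was closest to Ccl3, Ccr1 and Ccl6 (r = 0.9988, 0.9882 and 0.9877), which encode inflammatory chemokines and a chemokine receptor, and 70 genes had an r above 0.9. Ccl3, like Cd36, was highest in knockout replicate 1 (78.3 CPM) and next in wild-type replicate 3 (74.5 CPM). Cebpa was closest to Pik3cb, Ptpro and Nfam1 (r = 0.9985, 0.9985 and 0.9984). Nfam1, an immune receptor gene, stood at 209 CPM in wild-type replicate 3 and 0.241 CPM in wild-type replicate 1. Fabp5 was closest to 1 of the 2 loci named Csf2ra, a subunit gene of the GM-CSF receptor (r = 0.9983), and Cebpd to Wdyhv1, Zc3h12a and the locus of Armcx6 and Gm10344 (r = 0.9975, 0.9969 and 0.9966). Zc3h12a, which encodes an RNase that limits inflammatory transcripts, stood at 89.1, 8.78 and 26.9 CPM in wild-type and 141, 96.2 and 93.5 CPM in knockout replicates 1 to 3. Lpl was closest to Lin7c, Ncoa1 and Pop5, Fabp4 to the locus of Fbxl19, Setd1a, Orai3 and Hsd3b7 and to Tmem251 and Cbx7, Cebpb to Lmf1, Macrod1 and Gm12537, and Pparg to Ccdc53, Sergef and Ppp1cc, with r from 0.9924 to 0.9991. After Csf2ra, Fabp5 was closest to AC153506.1 and Gm14221. Apart from Cd36, each of the 8 genes had between 506 (Cebpb) and 993 (Lpl) genes with an r above 0.9, so a close match was common, for the immune genes above as for the others.

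Of the 10 genes, 7 had a row in the authors' deposited table, and 3 (Pparg, Cebpd and Fabp5) were not found there under their symbol. Cebpa had a log2 fold change of -2.27 with a p-value of 0.0109 and a q-value of 1 in the authors' deposited table. For Fabp4, Cd36 and Cebpb the authors' deposited table gave -0.56, 0.54 and 0.72, each with a q-value of 1; its Cebpb row runs from 167553314 to 167690418 and so covers more than the Cebpb locus. Adipoq and Plin1 were marked as not tested in the authors' deposited table.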

How the data were processed

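Libraries were made with a stranded mRNA kit, per the labels' protocols. The submitters' processing notes name CASAVA 1.8.2, TopHat2 2.0.6, Cuffdiff 2.0.1 and mm10, with no role or order. The authors deposited, per the file headers, estimated counts of fragments, scaled fragments (a signal) and FPKM per locus and library, and a table of their own comparison with FPKM, log2 fold change, p-value and q-value. Of 39495 loci, 2667 without a name (0.507 to 0.555% of fragments) and 16 named loci marked as too deep to estimate were left out, and 24.2% of nonzero counts were not whole. Here counts were rounded, filtered (filterByExpr) and TMM-scaled, and 15673 genes were tested in edgeR 4.0.16 (R 4.3.3), the pipeline being tested on simulated data. The common biological coefficient of variation was 0.467. Alternatives used DESeq2 1.42.0, limma 3.58.1, other scalings, filters and left-out libraries. RefSeq promoters were matched by symbol, and neighbouring genes come from the reference annotation. The members and lists were chosen with earlier results of these data known. Text names all members, up to 4 tested genes per list by smallest p, and the 3 most alike genes per member. Agpat2, Sncg, Slc2a4, Cx3cr1, Cdh5, Flt1, Myf5, Krt5, Krt8, Cdh1, Plin2, Abhd5, Fabp3, Scd1, Dlk1 and the genes listed at or near 0 fall outside that rule. They were chosen after their values were seen.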

Additional observations from a re-analysis of the deposited data

How the results depend on the processing

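Of 324 recomputed values, 302 counted as unchanged, 10 reversed, 12 moved, and 0 gained or lost a call. Fold changes counted as unchanged if they kept their direction and side of the threshold, and counts if within 1.5 times. The DESeq2 fold changes of Fabp4, Fabp5 and Lpl had no adjusted p, kept their direction and were counted as unchanged. List medians counted as unchanged, whatever their sign, within 1 SD of the list's mean log2 CPM between replicates. That SD was 3.01 for the macrophage markers and 0.151 for the progenitor genes. The macrophage median, -2.43 with all libraries and 0.09 without wild-type replicate 3, thus counted as unchanged. Log2 fold changes with the opposite sign were Cd36 at -0.95 without knockout replicate 1 and -0.01 without wild-type replicate 1, Cebpa at 0.33 with the macrophage marker covariate, Fabp5 at 0.36 without wild-type replicate 3, and Fabp4 at 0.26 on log2(FPKM + 0.1), 0.23 on log2(FPKM + 1), 0.18 in limma-voom, 0.55 with the covariate and 1.35 without wild-type replicate 3. The cause was not tested. DESeq2 called 61 genes and limma on log2(FPKM + 0.1) called 1, against 0 in edgeR. List medians moved to 0.10 (endothelial, at least 1 CPM in 3 libraries), -1.31 and -1.27 (epithelial, DESeq2 and no filter), 0.64 (macrophage, covariate), and 0.25 and -0.15 (progenitor, log2(FPKM + 0.1) and covariate). Leaving out each library in turn gave -1.23 to -0.22 for Pparg, -3.28 to -0.28 for Cebpa, 0.36 to 1.03 for Cebpb, 0.74 to 1.92 for Cebpd, -1.02 to 1.35 for Fabp4, -3.15 to 0.36 for Fabp5, -4.47 to -0.18 for Lpl and -0.95 to 2.70 for Cd36. It gave list medians of -0.43 to 0.03 (anti-adipogenic), -1.32 to -0.29 (endothelial), -0.42 to 0.69 (epithelial), 0.02 to 0.45 (lipolysis), -4.68 to 0.09 (macrophage), -0.22 to -0.03 (pro-adipogenic), -0.10 to 0.18 (progenitor) and -1.15 to -0.34 (skeletal muscle). The replicate numbers only name libraries, but the deposited files carry 3 index sequences, each used once in both genotypes. Deviations from the genotype means of libraries with the same index correlated at -0.48, -0.04 and -0.25 over genes. Those of libraries with different indexes correlated at -0.48 to 0.53. Libraries of the same index were therefore not more alike by this measure. Deviations sum to 0 within each genotype, so these values depend on one another and cannot show a weaker pairing. A fit with the index as a replicate block, chosen after seeing the data, called 0 genes and gave 0.40 for Fabp4, the opposite sign, and 1.43 for Cebpd. The counts of Adipoq and Plin1 were too low to allow a fold change.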

Other observations

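Ratios of the lipid handling genes within a library, chosen after the values were seen and not tested, did not overlap between the genotypes for 2 of the 6 pairs of Lpl, Fabp4, Fabp5 and Cd36. Among single genes tested, 10.6% did not overlap in either direction. No such share was worked out for ratios of gene pairs, so the count has no reference. The ratio of Lpl to Cd36 FPKM was 5.95, 2.14 and 7.05 in wild-type replicates 1 to 3 and 0.285, 0.790 and 0.441 in knockout replicates 1 to 3, so that every wild-type library lay above every knockout library. The ratio of Fabp5 to Cd36 FPKM was 33.3, 5.87 and 12.1 in wild-type and 1.49, 3.26 and 1.996 in knockout replicates 1 to 3, again without overlap. Both pairs share Cd36. The ratio of Fabp5 to Fabp4 FPKM was 1.35, 3.32 and 3.63 in wild-type and 1.47, 0.703 and 0.767 in knockout libraries, where knockout replicate 1 lay above wild-type replicate 1. Divided by the summed CPM of the macrophage markers with a locus of their own and given in thousandths of that sum, Fabp4 stood at 217, 4.64 and 5.66 in wild-type and 19.2, 118 and 73.3 in knockout replicates 1 to 3, while Cebpa stood at 28.8, 11.8 and 6.55 in wild-type and 9.37, 21.5 and 20.2 in knockout replicates 1 to 3.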
